A study of Homo sapiens with 42 samples.

Results

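N6-methyladenosine (m6A) is the most common internal modification of messenger RNA. A nuclear complex writes it while transcripts are made: METTL3 carries the catalytic site, METTL14 holds the RNA and is needed for METTL3 to work, and WTAP helps to place the pair at nuclear speckles. Reader proteins bind marked transcripts and alter their splicing, export, translation or decay. The data described here compare m6A peaks of METTL14 knockdown cells with those of control cells, both of the line HepG2, which comes from a human hepatocellular carcinoma.

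The assay, m6A-seq, sequences mRNA fragments bound by an m6A antibody (IP) and, separately, the fragments before selection (input), and a peak is a stretch where IP exceeds input. Of the 42 samples of the series, 12 belong to the comparison: 3 input and 3 IP libraries of cells carrying a METTL14 shRNA, and 3 input and 3 IP libraries of cells carrying a non-specific control shRNA. Cells of all conditions carried lentiviral shRNAs and were selected with puromycin. Other lists of the same series are cited for reference, those of METTL3 and WTAP knockdown cells and that of a second non-specific control shRNA made for another experiment, each from 3 input and 3 IP libraries. Whether the METTL14 shRNA was 1 hairpin or several, and whether replicates were separate cultures, is not given in the sources used here.

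The authors called peaks on replicates 1 to 3 together, so each condition is 1 list and no value below has a replicate error or a test between conditions. Intervals are exact Clopper-Pearson 95% intervals and cover counting error only. A control peak was called lost when its blocks, the exonic pieces of a peak, had no base in common with any METTL14 peak of the same strand, and kept otherwise. A METTL14 peak without such a control peak was called gained. A lost peak is one that was not called, and less methylation, less transcript and less sequencing cannot be told apart in these lists. The peak lists hold no transcript levels, so the knockdown itself was not checked. The reference table used here lists genes without Ensembl identifiers, so 0 of the 15123 gene identifiers in the lists could be matched to a name. Genes are therefore given by identifier or hg19 position, and neither their functions nor liver marker genes were analysed.

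The METTL14 list held 28841 peaks in 12503 genes and the control list 33672 peaks in 14570 genes. Of the control peaks, 10046 were lost, a share of 29.8% (29.3 to 30.3%), and 23626 were kept. Of the METTL14 peaks, 3654 were gained, a share of 12.7% (12.3 to 13.1%), and 25187 overlapped a control peak. Among genes, 2620 of those with a control peak, 18.0%, had no METTL14 peak, and 553 of those with a METTL14 peak, 4.42%, had no control peak. For reference, the second control list lacked 28.6% of the control peaks, so a loss of this size also occurred between 2 control lists. The 2 control lists were not alike in enrichment, however. The median ratio of IP over input was 4.33 in the second control list, 6.79 in the control list and 6.71 in the METTL14 list.

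Losses were spread over many genes and rarely emptied a gene that had several peaks. At least 1 peak was lost in 7131 control genes, 48.9% of them, and every peak in 2741, 18.8%. Of the 5974 genes with a single control peak, 34.6% lost it, whereas all peaks were lost in 13.1% of the 3795 genes with 2 peaks, 5.99% of the 2205 with 3 and 2.68% of the 1194 with 4. Loss of some peaks only was the most frequent outcome from 3 peaks upward, at 55.1% of genes with 3 peaks and 87.0% of genes with 8 or more. A gene with more peaks has more chances to lose 1 and fewer to lose all, so these shares follow in part from the counting. Of the lost peaks, 6572 (65.4%) lay in genes that had a METTL14 peak and 3474 (34.6%) in genes that had none.

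**Figure D1:**
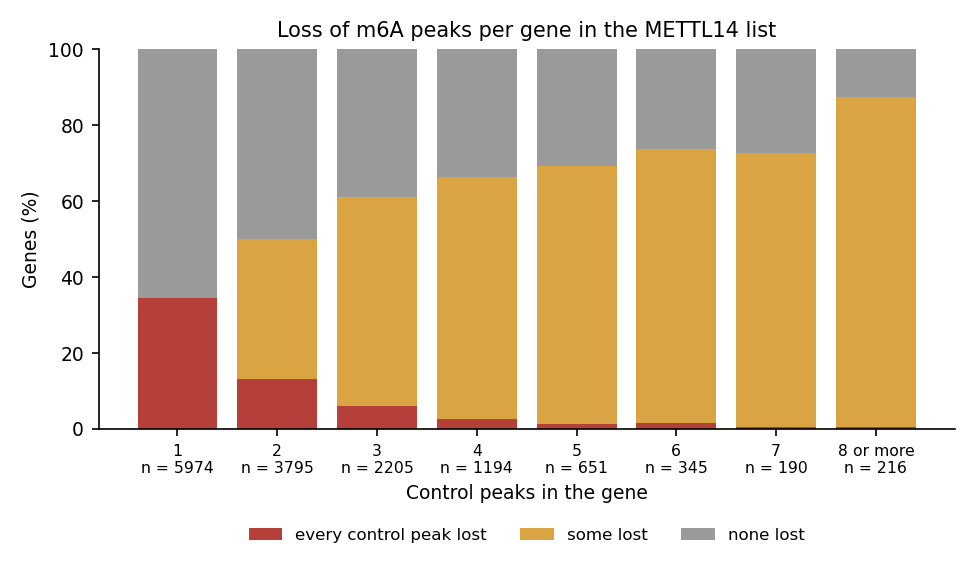
Share of genes (y axis, percent) by the number of control peaks in the gene (x axis, with the number of genes), divided into genes with every control peak lost, some lost and none lost in the METTL14 list. The share with every peak lost is 34.6% at 1 peak and 0.463% at 8 or more, and the share with some lost is 87.0% there.

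The 3795 genes with exactly 2 control peaks show how losses fell within a gene. Both peaks were lost in 496, only the 5′ peak in 707, only the 3′ peak in 693 and neither in 1899. The 5′ peak was lost in 41.7% of the 1189 genes that lost the 3′ peak, against 27.1% of the 2606 genes that kept it. Losses within a gene thus coincided in these lists, and single losses were about as many at either end. The p-values of the peaks compared here were not matched. Over all genes with 2 or more control peaks, 29.6% of 5′-most and 29.9% of 3′-most peaks were lost. With the same mix of 5 p-value classes at both ends, these shares were 26.9 and 34.4%. For absence from the second control they were then 22.8 and 30.0%.

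Lost peaks were weaker, narrower and less often spread over several exons than kept ones. Fold enrichment here is the authors' ratio of IP over input, and the log10 p is theirs for IP against input. The median lost peak had 3.86-fold enrichment, its log10 p was -4.31 and it had 151 block bases, while the median kept control peak had 8.43-fold enrichment, a log10 p of -23.6 and 330 block bases. Gained peaks were as narrow as lost ones, with medians of 150 block bases, 5.29-fold enrichment and a log10 p of -3.95. From the best to the worst of 5 equal classes of the control list by p-value, 0.401, 8.24, 26.5, 47.0 and 67.0% of peaks were lost. Absence from the second control took nearly the same course, at 1.10, 8.17, 22.2, 43.7 and 67.5%. In the same classes of the METTL14 list, 0.486, 3.99, 10.3, 16.6 and 32.0% were gained.

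Width and number of blocks sorted the losses strongly. Of the control peaks with at most 100 block bases, 72.1% were lost, and of the 1951 with over 1000 block bases only 1 was lost, 0.0513%. Absence from the second control declined with width too, with 68.1% of the narrowest and 0.359% of the widest class absent. The share lost was 38.8% for peaks in 1 block, 20.7% in 2, 10.1% in 3, 3.76% in 4 and 0.454% in 5 or more. Peaks in more blocks also had better p-values, so shares were also computed with the same mix of p-value classes at each block number (standardised). Standardised shares were 32.9, 24.5, 20.2, 13.6 and 1.60%. Absence from the second control also fell with block number before standardising, at 34.4, 23.4, 14.9, 11.6 and 5.22%. Its standardised shares were 28.7, 28.0, 26.9, 27.1 and 34.2%, which showed no such decline. The decline was not particular to METTL14. Without standardising, the METTL3 list lacked 29.3, 16.7, 7.66, 2.97 and 0.454% of control peaks, and the WTAP list 37.2, 20.3, 9.95, 4.55 and 0.340%. Of the 882 control peaks in 5 or more blocks, 4 were lost and 46 were absent from the second control. The standardised shares of this class thus rest on few peaks. All of these comparisons use the same control list.

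**Figure D2:**
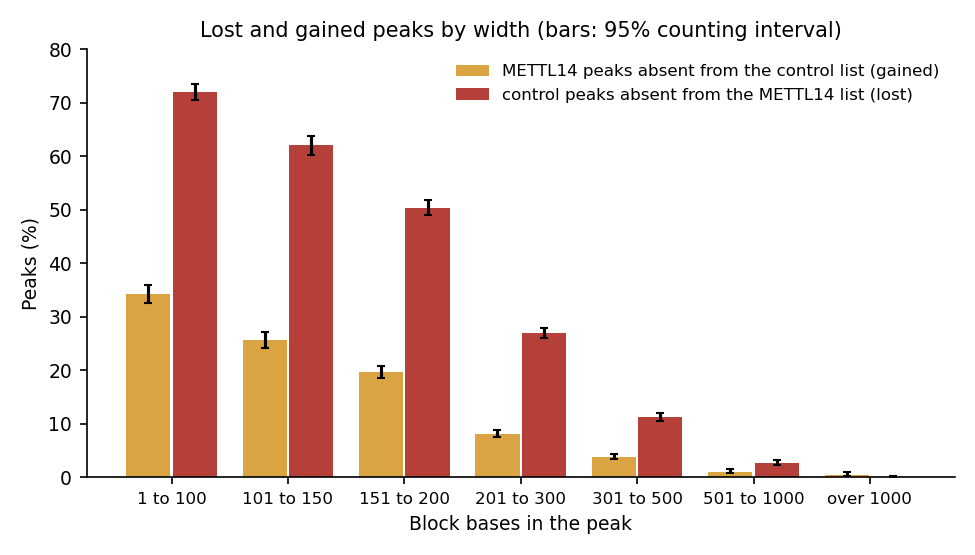
Share of METTL14 peaks gained and of control peaks lost (y axis, percent, each of its own list) by the number of block bases in the peak (x axis), with exact 95% intervals that cover counting error only. Losses go from 72.1% in the narrowest class to 0.0513% in the widest, and in every class but the widest the lost share lies above the gained share.

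The share lost differed along the genome. The genome was cut into windows of 1 Mb, which were classed by the number of control peaks they held, a choice made after the data were examined. In windows with 1 to 5, 6 to 10, 11 to 20, 21 to 40 and over 40 control peaks, 42.1, 42.1, 36.1, 29.2 and 21.8% of control peaks were lost. Standardised for p-value class, the shares were 38.7, 38.8, 35.2, 29.8 and 22.8%, so a gradient remained among peaks of like p-value. In the middle class by p-value alone, 38.6% of 484 peaks were lost in the sparsest windows and 16.6% of 2541 in the densest.

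For the second control list the shares ran in the opposite direction. In the same windows 25.2, 26.5, 25.7, 27.6 and 31.6% of control peaks were absent from it. Standardised for p-value class, its share was 23.1% in the sparsest and 32.9% in the densest windows. In the METTL3 list, which lacked 22.8% of all control peaks, the shares were 27.9, 29.3, 26.5, 22.3 and 18.7%, and in the WTAP list, which lacked 28.8%, they were 39.2, 39.1, 34.1, 28.6 and 21.8%. These 3 comparisons share the control libraries with that of METTL14. A comparison without them sets the METTL14 list against the second control list. Of the second control peaks, 31.0% were absent from the METTL14 list, and by window 48.6, 44.7, 37.6, 29.6 and 20.6%. Here the sparsest class also took in windows without a control peak. With windows classed by second control peaks instead, the shares were 46.6, 43.0, 37.9, 30.0 and 20.6%. The fall with density in absence from the METTL14 list was thus present with either control. Whether the second control was made alongside the METTL14 libraries is not given.

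**Figure D3:**
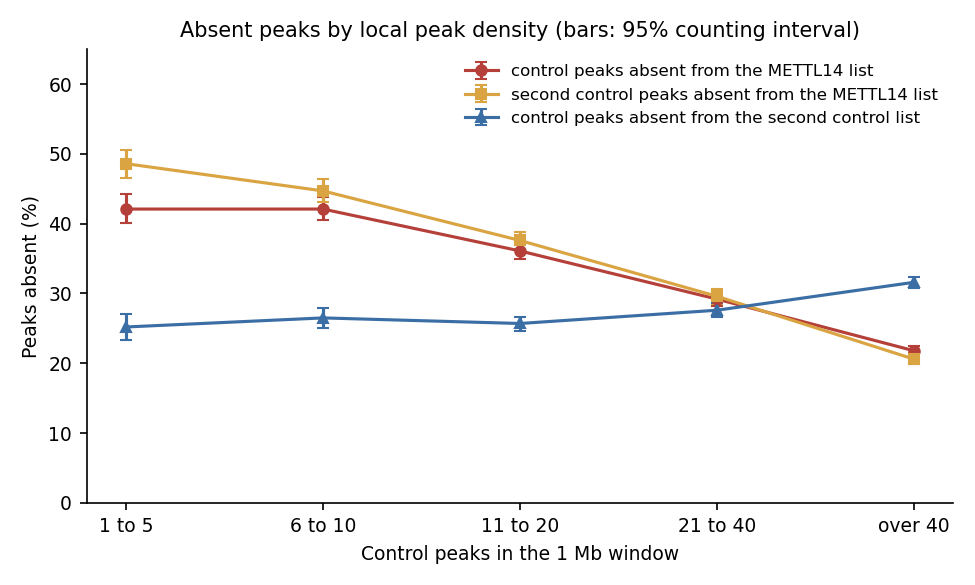
Share of peaks absent from another list (y axis, percent) by the number of control peaks in the 1 Mb window (x axis), with exact 95% intervals that cover counting error only. Absence from the METTL14 list falls with density for control peaks (42.1 to 21.8%) and for second control peaks (48.6 to 20.6%), while absence of control peaks from the second control is 25.2% in the sparsest and 31.6% in the densest windows. For second control peaks, the sparsest class also holds windows without a control peak.

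Taking windows of up to 10 control peaks as sparse and those of over 40 as dense, 42.1% of peaks were lost in sparse and 21.8% in dense windows, a difference of 20.3 percentage points. In the better-supported part of the control list, from the median p-value up, the shares were 14.3 and 4.21%, a difference of 10.1 points. With dense windows taken as those of over 20 peaks, 21 chromosomes had at least 20 control peaks in both kinds of window, and sparse windows had the higher share on all 21, by 4.07 points on chromosome 13 to 36.8 points on chromosome 19. Whole genes followed the same order. From the sparsest to the densest windows, 31.7, 27.9, 22.7, 16.2 and 8.48% of control genes had no METTL14 peak. These gene shares were not adjusted for p-value or for the number of control peaks per gene. Over all windows, 33.0% of genes with 1 control peak and 5.71% of those with 3 had no METTL14 peak. Gains ran the other way, with 10.1, 9.27, 11.1, 11.4 and 14.9% of METTL14 peaks gained. For gains, the sparsest class also took in windows without a control peak.

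Chromosomes differed as well. The share lost was 44.8% (40.1 to 49.6%) of 435 control peaks on chromosome 13, 38.1% of 889 on chromosome 4 and 35.0% of 843 on chromosome X. Among the lower shares were 22.2% (20.5 to 23.9%) of 2296 on chromosome 16, 23.4% of 1137 on chromosome 22 and 25.2% of 3035 on chromosome 19. Absence from the second control was 29.7% on chromosome 13 and 26.7% on chromosome 4, against 28.7% on chromosome 16, 32.4% on chromosome 22 and 32.2% on chromosome 19. On chromosomes 13 and 4 the METTL14 share lay above the second control share and on chromosomes 16, 22 and 19 below it, with intervals that did not overlap. Intervals were also apart on others, with X above and 17 below among them, and overlapped on 7 and 9. On chromosomes 13, 4, 16, 22 and 19, 43.0, 33.5, 21.6, 24.5 and 24.6% of control peaks were absent from the WTAP list. From the METTL3 list 33.1, 25.5, 18.9, 22.4 and 19.7% were absent. Standardised for p-value class, the METTL14 share was 39.5% on chromosome 13 and 23.0% on chromosome 22, a smaller difference than without standardising.

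**Figure D4:**
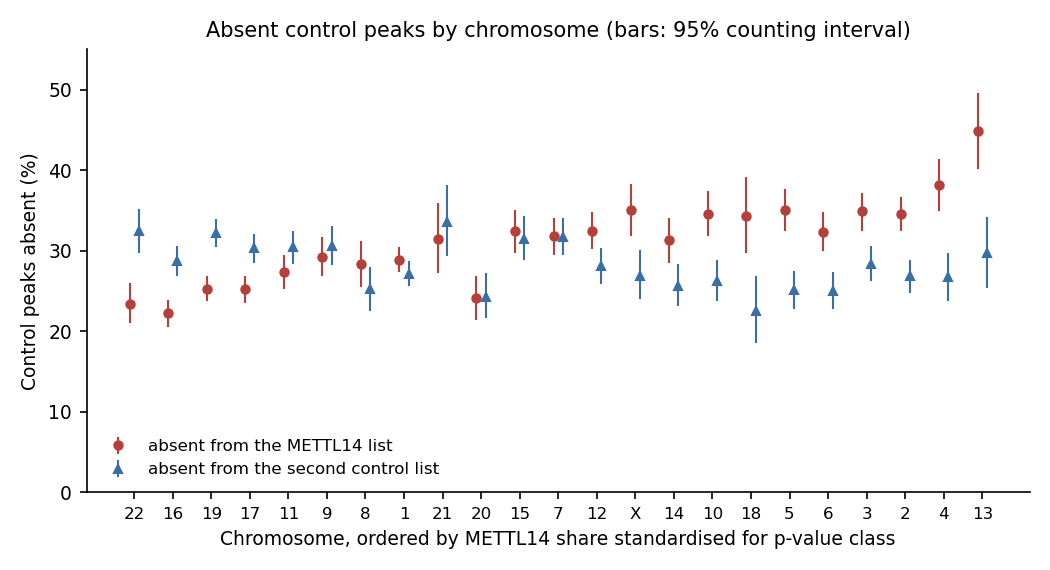
Share of control peaks absent from the METTL14 list and from the second control list (y axis, percent) on each chromosome but Y, ordered by the METTL14 share standardised for p-value class (x axis), with exact 95% intervals that cover counting error only. METTL14 shares reach 44.8% on chromosome 13, at the right, and are 23.4% on chromosome 22 and 22.2% on chromosome 16, at the left.

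Single windows of at least 15 control peaks, 676 in all, had a median of 26.5% of peaks lost and ranged from 0 to 86.7%. The share lost was highest in chr9:32000001-33000000, where 13 of 15 control peaks in 8 genes were lost. Of these 15, 14 were absent from the WTAP list, 11 from the METTL3 list and 6 from the second control. In chr19:53000001-54000000, 28 of 38 control peaks in 21 genes were lost, and 23 of these 38 were absent from the second control too. In chr5:145000001-146000000, 13 of 16 were lost, against 3 of 16 absent from the second control, 8 from the METTL3 list and 12 from the WTAP list. In chr22:37000001-38000000, on the other hand, 1 of 23 control peaks was lost and 10 of 33 METTL14 peaks were gained.

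The gene with the most lost peaks was ENSG00000038427.15, with peaks over chr5:82767284-82877103 on the plus strand. It held 3 METTL14 peaks and 16 control peaks, of which 13 were lost. The METTL3 list held 8 peaks there, the WTAP list 4 and the second control list 13, so that the METTL14 list had the fewest of the 5 lists. Enrichment of the lost peaks ran from 1.55-fold to 8.57-fold in the control list, with a median of 3.62. The best supported of them had a log10 p of -136. Block bases summed to 422 in the METTL14 list and 4209 in the control list.

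Genes that followed in the order of lost peaks differed in what remained. A gene at chr11:118342945-118396199 on the plus strand held 2 METTL14 peaks and 11 control peaks, of which 9 were lost. In ENSG00000116731.22, at chr1:14075878-14113377 on the plus strand, the METTL14 list held 0 peaks and the control list 8, with enrichments of 2.07-fold to 6.47-fold. A gene at chr22:46758590-46932257 on the minus strand also lost 8 peaks, of 11. In ENSG00000116731.22 the METTL3 list held 4 peaks, the WTAP list 1 and the second control list 4. This gene had the most control peaks among the 15 genes with 5 or more that lost every one. Another of the 15, at chr5:140580866-140581553, held 6 control peaks within 0.688 kb with enrichments of 12.9-fold to 28.3-fold. Their blocks summed to 994 bases, more than that span, so these peaks overlapped one another and are not 6 separate sites. In all, 62 genes lost 5 or more peaks. They held 214 METTL14 peaks and 533 control peaks, beside 334 in the METTL3 list, 266 in the WTAP list and 355 in the second control list. These genes were picked for their losses, so their totals describe them and test nothing.

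Some lost peaks were strong in the control list. Among lost peaks in the better-supported part of the control list, the 10 with the highest enrichment ranged from 53.1-fold to 119-fold. The first lay at chr15:56034715-56035288 on the minus strand, in 2 blocks, at 119-fold and a log10 p of -35.6. The METTL14 list kept 1 other peak of its gene, at a distance of 122310 bases. The second lay at chr20:37555015-37555551 on the plus strand, at 103-fold and a log10 p of -63.9. The third lay at chr14:64009523-64010062 on the minus strand, at 98.4-fold and a log10 p of -115, and its gene had no other control peak.

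These 10 loci were not empty in the other lists. Each of the 10 overlapped a peak in the METTL3, WTAP and second control lists. At chr14:64009523-64010062 these peaks had 9.81-fold, 33.4-fold and 32.0-fold enrichment, each on the scale of its own list. At chr12:28343374-28343641 on the minus strand the control peak had 61.7-fold enrichment, and all 4 control peaks of its gene were lost. For chr15:70389086-70389347 (minus strand, 55.7-fold in the control list), the nearest METTL14 peak lay 90 bases away. The other 9 had no METTL14 peak within 100 bases.

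A best p-value did not always mean high enrichment. Ranked by p-value, the genes that lost every control peak were led by a peak at chr17:79477592-79477770 on the minus strand, with a log10 p of -333 but 1.68-fold enrichment, which was also absent from the METTL3, WTAP and second control lists. The next was at chr12:56510987-56511374 on the plus strand, with a log10 p of -190 and 1.32-fold enrichment. It was absent from the METTL3 and WTAP lists, and the second control list had a peak of 2.81-fold there. Of the 10 such genes, chr14:64009523-64010062 was the only one whose best peak had over 10-fold enrichment.

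Gained peaks were mostly single, but some came in runs along 1 gene. Of the 2625 genes with a gained peak, 1984 (75.6%) had 1, 432 had 2, 167 had 3 or 4 and 42 had 5 or more. Most gained peaks, 2934 (80.3%), lay in genes that also had a control peak. A total of 925 genes had both a lost and a gained peak. The 42 genes with 5 or more gained peaks held 395 METTL14 peaks and 149 control peaks, and 31 of them had no lost peak. The METTL3 list held 199 peaks in these genes, the WTAP list 322 and the second control list 94. These genes too were picked for their gains.

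The longest run was in ENSG00000142798.17, at chr1:22148738-22222766 on the minus strand. It held 21 METTL14 peaks and 6 control peaks, with 15 gained and 0 lost. The gained peaks had 1.63-fold to 13.4-fold enrichment, with a best log10 p of -73.1. The METTL3 list held 14 peaks there, the WTAP list 20 and the second control list 7, so both other writer knockdowns lay above both controls.

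The highest enrichments among gained peaks came from ENSG00000185567.6, at chr14:105404151-105423835 on the minus strand. It held 18 METTL14 peaks and 6 control peaks, with 14 gained and 0 lost. Block bases summed to 15336 in the METTL14 list and 846 in the control list. Within each list some peaks of this gene overlapped one another. The peaks are therefore not all separate sites, and some bases are counted more than once. A peak of 2400 bases at chr14:105411167-105413566 reached 234-fold, at a log10 p of -76.9, and peaks of 218-fold, 160-fold and 104-fold followed in the same gene. The WTAP list held 18 peaks there, the METTL3 list 0 and the second control list 5. In this gene the METTL3 and WTAP lists thus lay at opposite ends.

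**Figure D5:**
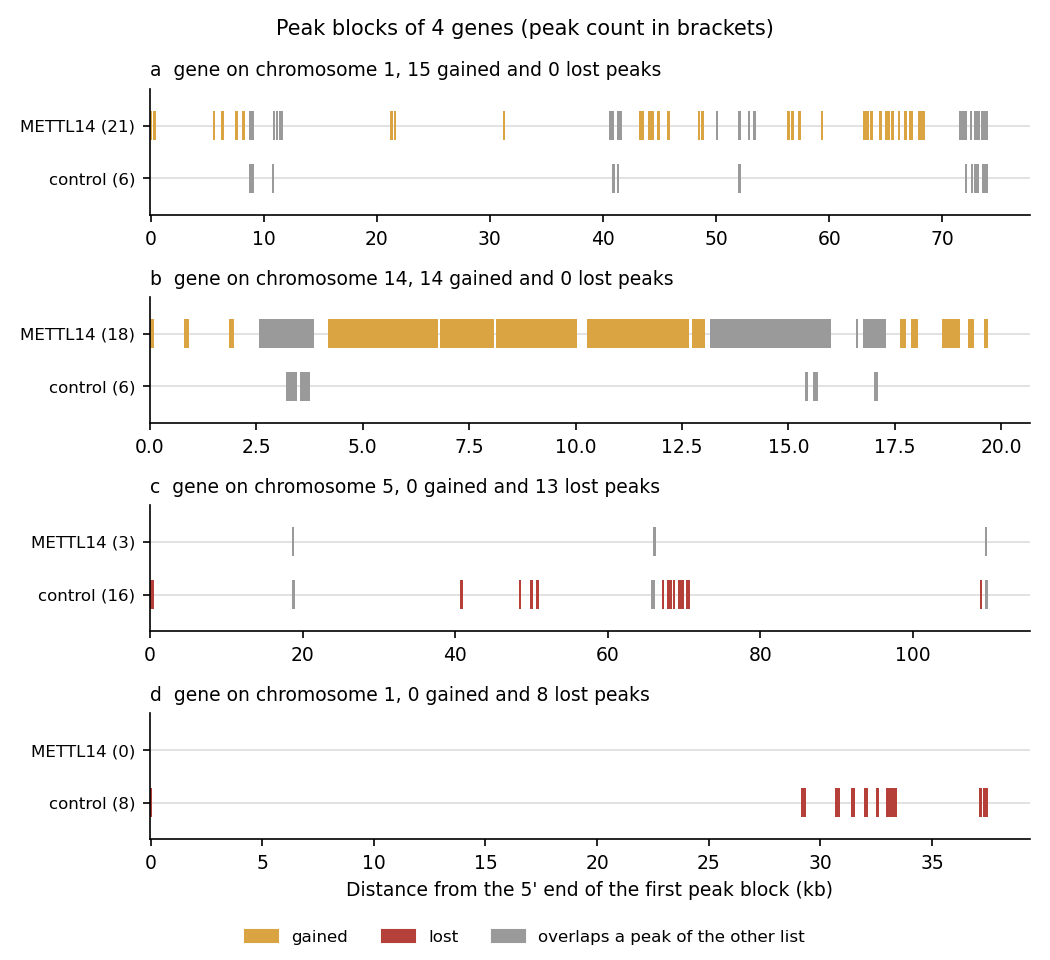
Peak blocks along the 2 genes with the most gained peaks (a, b) and 2 of the genes with the most lost peaks (c, d), with the METTL14 list above the control list and distance from the 5′ end of the first peak block in kb on the x axis. In a and b the METTL14 list holds 21 and 18 peaks against 6 and 6 in the control list, and in c and d it holds 3 and 0 against 16 and 8.

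Runs also occurred in genes with few control peaks or none, although the 42 genes held a median of 3 control peaks and up to 18, and 7 of them held none. A gene at chr15:43814887-43823489 on the plus strand held 10 METTL14 peaks and 0 control peaks, while the WTAP list held 9, the METTL3 list 0 and the second control list 0. A gene at chr17:48133332-48167785 on the plus strand held 11 METTL14 peaks, 9 of them gained, and 2 control peaks. At chr19:42592540-42600370 on the minus strand, 7 METTL14 peaks stood against 0 control peaks, with 1 in the WTAP list. Of the 10 gained peaks with the highest enrichment among the better-supported METTL14 peaks, 4 lay in the chromosome 14 gene, and 3 in genes with no control peak. A peak at chr17:6373648-6382108 on the minus strand, in 8 blocks with 75.7-fold enrichment, was the only 1 of the 10 that overlapped no METTL3, WTAP or second control peak.

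Peaks present in both lists often differed in extent. Kept control peaks shared a median of 86.9% of their block bases with METTL14 peaks, and 88.3% of them shared at least 50%. Among 18674 peaks matched 1 to 1, median width was 241 bases in the METTL14 list and 326 bases in the control list. Within pairs, the median ratio of METTL14 to control width was 0.882. The METTL14 peak was narrower in 62.4% of pairs, wider in 21.9% and of the same width in 15.7%. It was under 0.5 times as wide in 2073 pairs (11.1%) and over 2 times as wide in 2.92%. Such widths are not given here for the second control. Of the kept control peaks, 3744 (15.8%) overlapped 2 or more METTL14 peaks, up to 11. In the other direction, 2663 METTL14 peaks (10.6%) overlapped 2 or more control peaks, up to 7. Some peaks of the same list overlap one another, so these counts do not separate split or joined peaks from such overlaps.

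Few losses were small shifts. A METTL14 peak lay within 100 bases of 345 lost peaks (3.43%), and the median distance from a lost peak to the nearest METTL14 peak on its strand was 8488 bases. For gained peaks the nearest control peak lay within 100 bases in 288 cases (7.88%), at a median distance of 1866 bases. A METTL14 peak on the opposite strand overlapped 148 lost peaks (1.47%).

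Several genes with many peaks lost none. At chr1:144162091-144224061 on the plus strand both the METTL14 and the control list held 16 peaks, and the METTL3, WTAP and second control lists held 16, 16 and 17. At chr2:54683422-54895793 on the plus strand, 12 METTL14 peaks stood against 11 control peaks, with 1 gained. At chr20:34042985-34104998 on the plus strand, the METTL14 list held 10 peaks and the control list 11, with all 11 kept. Of the 216 genes with 8 or more control peaks, 27 (12.5%) lost none.

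The best supported peaks matched 1 to 1 were called in every list cited. The 10 with the best control p-value, all listed with a p of 0 in the control table, overlapped a peak in the METTL14, METTL3, WTAP and second control lists. The first, at chr1:201436682-201438365 on the minus strand, had 49.3-fold enrichment in the METTL14 list and 276-fold in the control list. In 9 of the 10 the METTL14 value was the smaller, the exception being chr10:103436457-103454932 on the minus strand, with 236-fold in the METTL14 list and 183-fold in the control list. In each of the 10 the METTL3, WTAP and second control values were also below the control value. With p-values tied at 0, these peaks stand in order of control fold, which favours high control values. Each fold belongs to the scale of its own list.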

How the data were processed

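The m6A-seq libraries of HepG2 cells were processed by the submitters, whose notes list TopHat2 2.1.1, FastQC 0.11.5 and the genome build hg19 (per the submitters' processing notes). Per the labels, exomePeak was run by the authors over the 3 replicates jointly. Its version, the annotation and the reads behind a peak are not given, so depth is unknown. For every peak the deposited tables hold a p-value, under the heading score, the log10 of that value and of the false discovery rate (FDR), and the fold enrichment as a linear ratio (IP to input). The log10 columns are scores without a fixed range. The largest FDR was 0.049 in the METTL14 and control tables and 0.050 in that of the second control. Shorter deposited lists held exactly the peaks enriched at least 2-fold whose p-value was 1e-05 or lower, and served as an alternative.

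Rows repeating strand and blocks were dropped (14 in the METTL14 table, 16 in the control table). Peaks were compared by block overlap with bedtools 2.31.1, and shares and medians came from scipy 1.17.1, numpy 2.4.6 and pandas 2.3.3 under Python 3.11.15. Distances are as bedtools counts them, and windows hold peaks by their midpoint. On simulated lists made from the 33672 control peaks, 93.7% of removed peaks were called lost. The other removed peaks overlapped a peak left in the list. Of the peaks not removed, 0 were called lost. They had been shifted by few bases only, so that outcome was nearly fixed in advance.

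Named loci are the 10 lost and 10 gained peaks of highest fold enrichment whose p-value was no worse than the median of their own list, the 10 best supported genes losing every peak, the 10 genes with most lost, most gained or most unlost peaks, and the 10 best matched peaks, of which the leading ones are printed. The limit to peaks with a gene symbol could not be applied. The 15 genes with 5 or more control peaks and every one lost, and the windows, were singled out after their values were seen. The peak groups and lists were chosen with earlier results of these data known. Gene function lists, m6A motifs, transcript regions and sequences were not analysed here.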

Additional observations from a re-analysis of the deposited data

How the results depend on the processing

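Overlap of at least 50% of both peaks gave 45.2% of control peaks lost and 35.9% of METTL14 peaks gained. Limited to at least 3-fold enrichment, the lists gave 30.6% lost and 15.6% gained, with 19.8% of control genes and 5.99% of METTL14 genes lacking a peak in the other list. The shorter lists gave 29.3% lost and gene shares of 20.7 and 5.35%, and an FDR of at most 1e-05 gene shares of 21.4 and 5.34%. Counting the better-supported peaks alone, from the median p-value up, 7.90% were lost and 3.60% gained, with gene shares of 4.21 and 0.579%, since weak peaks were then not counted. With the second control in place of the control, 31.0% of its peaks were lost, 27.6% of METTL14 peaks gained, and 11.2% of METTL14 genes had no peak in it. For the other settings the cause was not tested. Another 8 values, among them those for whole spans and either strand, stayed within the interval of the reported share. Lost shares lay above gained shares in every alternative run. In each, the control side also held more peaks than the METTL14 list, which favours this order. Gene shares were counted by name, so the overlap rule does not bear on them. The difference in percent lost between sparse and dense windows, 20.3 points as reported, was 10.1 to 25.7 points over 10 alternatives, all chosen after the data were examined, and had the same direction in each. Absence from the second control gave -5.61 points. No paired analysis was possible because each list joins 3 replicates, and leaving out a replicate was likewise not possible. Alternatives planned for gene function lists, motifs and transcript regions were not run. Unknown depth limits the calling of weak peaks.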
